A study of Homo sapiens with 8 samples.

Results

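The beta-globin locus genes examined here are HBE1, HBG1, HBG2, HBD and HBB, which encode the beta-type chains of human hemoglobins, and OR51B4, the olfactory receptor gene next to HBE1. They were chosen by gene symbol, as all probes that the platform annotation assigns to these 6 genes, out of 20046 genes with a probe on the array. Each gene has 1 probe. The choice was made with the difference between the 2 groups already known, so that difference is described below without a test. A375 is an established human melanoma cell line. CD10-A375 cells carry the expression vector pCXN2.1 (+) with the coding sequence of human CD10, a cell-surface peptidase encoded by MME, and mock-A375 cells carry the same vector without an insert. Both were selected with G418, and cells with high CD10 on their surface were collected by flow sorting to make CD10-A375, so that this sorting cannot be told apart from CD10 itself. Vectors of this type hold rabbit beta-globin sequence in their expression cassette, which both lines therefore carry. The sequences of the array probes were not used here, and whether a globin probe can read the rabbit sequence was not tested. Total RNA of both lines was hybridized to Illumina bead arrays, 4 arrays of CD10-A375 and 4 of mock-A375.

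The human beta-type globin genes lie in 1 cluster on chromosome 11, in the order in which they are used during development. HBE1 encodes the epsilon chain of the embryo, HBG1 and HBG2 encode the near-identical gamma chains of the fetus, HBD encodes the minor delta chain and HBB the beta chain of the adult. A distant enhancer, the locus control region, lies upstream of HBE1 and contacts their promoters, and the cluster is set among olfactory receptor genes. Globin genes are a classic case of transcription restricted to red cell precursors, and melanocytes and melanoma cells are not known for it.

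Of the 6 genes, an entry in the RefSeq promoter table was found for HBD only, so the promoter of HBD is shown. The promoters of the others were not read, and HBD need not stand for them. The sequence comes from RefSeq, build GRCh38.p14, chr11:5234484-5234733, minus strand, written in the direction of transcription and ending at the base before the transcription start. Capitals mark the letters CCAAT, the letters TTATC, which read as GATAA on the other strand, and the letters ATAAAA.
HBD: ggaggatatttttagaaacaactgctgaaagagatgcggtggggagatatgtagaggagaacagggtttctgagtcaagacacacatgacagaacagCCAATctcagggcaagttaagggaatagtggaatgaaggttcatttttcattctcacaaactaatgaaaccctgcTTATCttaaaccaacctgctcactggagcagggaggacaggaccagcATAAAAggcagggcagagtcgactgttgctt
The letters CCAAT, of a kind that NF-Y binds, began 153 bases before the start. Whether they match a CCAAT element of the other globin promoters was not tested. GATAA, the core letters bound by GATA factors, was read as TTATC from 78 bases before the start, and the letters ATAAAA, which resemble a TATA box, from 31 bases before it. Searched on both strands and without overlap between them, these letters were found in 32% (CCAAT), 20.4% (GATAA) and 14.8% (ATAAAA) of 35116 promoters of the same length. CACCC, the letters bound by Krüppel-like factors, was not in this window and was in 54.7% of all promoters. A match is a run of letters and not a shown binding site.

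A probe counted as detected at a detection p of 0.01 or below, and the 19550 of 47322 probes that any array detected were tested with limma. An array of CD10-A375 detected 15977 to 16937 probes and an array of mock-A375 15930 to 16709. Over the tested probes, 17.3% were higher and 19.3% lower in CD10-A375 at a Benjamini-Hochberg adjusted p under 0.05 (36.6% in either direction). Log2 signals correlated at 0.991 to 0.993 between arrays of the same group and at 0.962 to 0.968 between arrays of different groups (Pearson's r across the tested probes, which are not independent replicates). The labels call the 4 arrays of a group biological replicates. A single transfected population per line is described, and whether the replicates are separate cultures is not stated, so p-values rest on the spread among these samples, which may be technical, and say nothing of independent transfections. The 4 MME probes were not detected on any of the 8 arrays, with a highest signal of 4.09 in CD10-A375 and 15.03 in mock-A375 and a lowest detection p of 0.114. Whether they lie within the cloned coding sequence is not stated, so MME does not check the labels.

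HBE1, the embryonic gene, was detected in mock-A375 and not in CD10-A375. Its signal, in arbitrary units after subtraction of the negative-control background, was -1.26, 8.21, 1.43 and 1.41 on the CD10-A375 arrays, against 457, 387, 434 and 417 on the mock-A375 arrays. The CD10-A375 values lay around 0, the level of probes that match no transcript, with detection p-values from 0.248 to 0.513, and the groups did not overlap. HBE1 averaged 2.45 ± 4.05 in CD10-A375 and 423.6 ± 29.6 in mock-A375 (SD, n = 4 each). On the normalized log2 scale this was 4.78 ± 0.08 in CD10-A375 and 8.75 ± 0.06 in mock-A375, a difference of -3.98. That scale holds an offset of 16 and understates the change of a gene with low signal. Since no CD10-A375 array detected HBE1, its fold is given as a bound. The bound sets the mock-A375 mean against the lowest signal of any detected probe on each CD10-A375 array, or the probe's own where that was higher, and HBE1 was at least 8.30-fold lower in CD10-A375. Fewer cells that transcribe a gene and less RNA of it per cell cannot be told apart in these bulk samples.

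HBG2, the gamma gene nearer to HBE1, had the same pattern of detection close to the background. Its signal was 27.35, 27.33, 16.5 and 14.2 on the CD10-A375 arrays, against 50.1, 47.6, 49.0 and 52.3 on the mock-A375 arrays. All 4 mock-A375 arrays detected it, with detection p-values of 0.0065 or less, no CD10-A375 array did, and the groups did not overlap. HBG2 averaged 21.3 ± 7.00 in CD10-A375 and 49.7 ± 1.96 in mock-A375 (SD, n = 4 each), a log2 difference of -0.75 and a bound of at least 1.25-fold lower. HBG1, the other gamma gene, was not detected on any array. Its signal was -7.27, -5.41, -0.475 and -4.50 on the CD10-A375 arrays, against 26.4, 18.2, 12.8 and 23.9 on the mock-A375 arrays. These groups did not overlap either, although the lowest detection p of HBG1 in mock-A375 was 0.026, above the threshold. Transcripts of the gamma genes are almost the same, and which of them these low values belong to is uncertain.

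The adult genes HBD and HBB were not detected on any array and their groups overlapped. The HBB signal was 0.522, -0.507, 20.8 and 4.12 on the CD10-A375 arrays, against 6.73, 21.4, 8.21 and 8.52 on the mock-A375 arrays, with a log2 difference of -0.10. In each group 1 array stood above the other 3. The HBD signal was 9.57, -6.67, -8.99 and 9.83 on the CD10-A375 arrays, against 2.16, 0.884, 21.0 and -5.06 on the mock-A375 arrays, with a log2 difference of -0.07. The lowest detection p was 0.045 for HBB and 0.065 for HBD, above the threshold. A difference in either gene is neither shown nor excluded by these signals.

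OR51B4, which encodes an odorant receptor and lies next to HBE1 on the side of the locus control region, was again detected in mock-A375 only. Its signal was 27.1, 17.7, 7.93 and 22.4 on the CD10-A375 arrays, against 157, 131, 207 and 149.6 on the mock-A375 arrays. The lowest mock-A375 array stood well above the highest CD10-A375 array. OR51B4 averaged 18.8 ± 8.19 in CD10-A375 and 161.3 ± 32.5 in mock-A375 (SD, n = 4 each). The log2 difference was -2.22, and OR51B4 was at least 3.31-fold lower in CD10-A375.

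**Figure D1:**
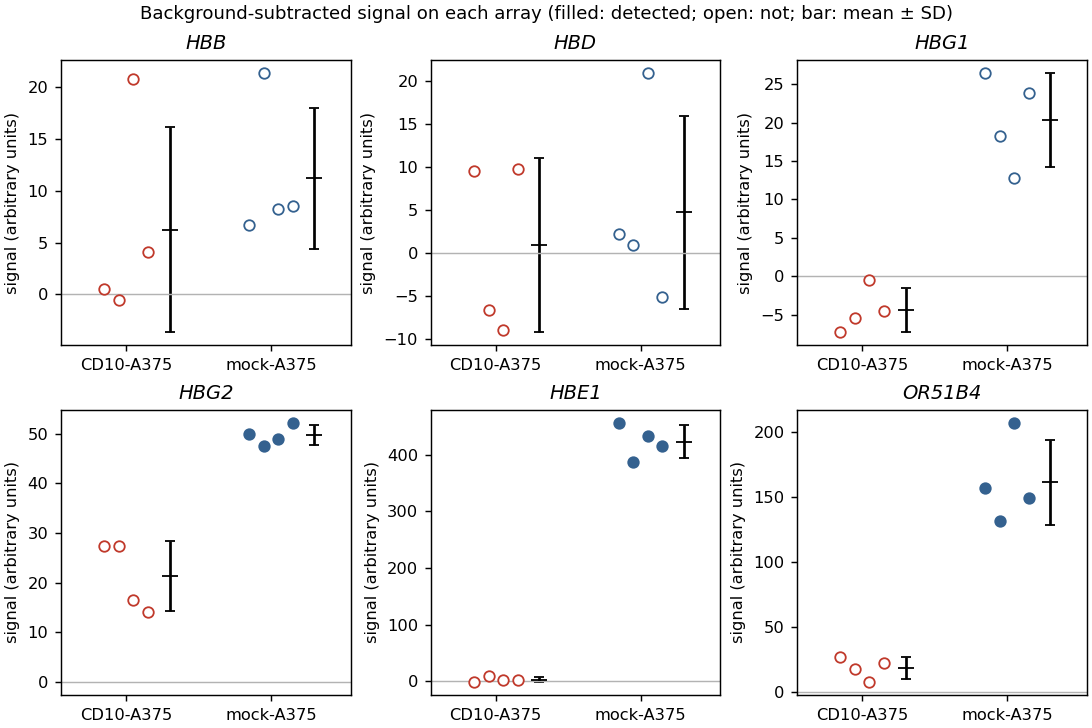
Background-subtracted signal (arbitrary units, a separate linear axis per gene) of the beta-globin genes and OR51B4 on each of the 4 CD10-A375 and 4 mock-A375 arrays, with filled points where the probe was detected, open points where it was not, and bars for the mean ± SD. HBE1, HBG2 and OR51B4 were detected on the 4 mock-A375 arrays and on no CD10-A375 array, while HBB and HBD overlapped between groups.

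HBE1, HBG2 and OR51B4 were thus detected on all 4 mock-A375 arrays and on no CD10-A375 array, a pattern that 0.429% of the 47322 probes had (203 probes). Together with HBG1, the signals of 4 of the 6 genes did not overlap between groups and were lower in CD10-A375, as held for 7.81% of all probes. Nothing is read from these counts, since the genes were chosen with this contrast known. Among the mock-A375 arrays the spread differed from gene to gene. The coefficient of variation of the signal was 3.94% for HBG2, 6.98% for HBE1 and 20.1% for OR51B4. OR51B4 was highest on mock-A375 array 3, HBE1 on array 1 and HBG2 on array 4, so no single mock-A375 array was the highest for all 3. After subtraction of the group means, the deviations of HBE1 over the 8 arrays correlated at -0.26 with those of OR51B4 and at 0.16 with those of HBG2 (Pearson's r, a description). No CD10-A375 array detected these genes, so the deviations of that group are near the background and whether the genes vary together is not settled.

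None of the genes around the cluster was detected on all 4 mock-A375 arrays and on no CD10-A375 array. In the gene order of the RefSeq annotation of GRCh38.p14, the window of 20 genes with a probe on each side of the cluster, together with the cluster itself, holds 41 other genes, of which 38 were not detected on any array. HBBP1, a beta-type pseudogene between HBD and HBG1, had signals of 13.6, 9.24, 7.97 and 22.5 in CD10-A375 and 19.3, 19.3, 29.5 and 15.04 in mock-A375, which overlapped and were not detected. On the far side of OR51B4, the olfactory receptor genes OR51B2, OR51B5 and OR51B6 were not detected either. Of the 38 undetected genes, OR51B2 and OR51B6 had lower signals in CD10-A375 without overlap, and OR51D1 and OR51F2 had higher ones. Over all undetected probes, 2.51% were lower in CD10-A375 without overlap. The OR51B2 signals ran from -16.5 to -13.6 in CD10-A375 and from -12.6 to -7.67 in mock-A375, and those of OR51B6 from -28.3 to -21.3 in CD10-A375 and from -19.4 to -9.13 in mock-A375, all below the negative-control mean. These 4 genes were singled out after their values were seen.

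**Figure D2:**
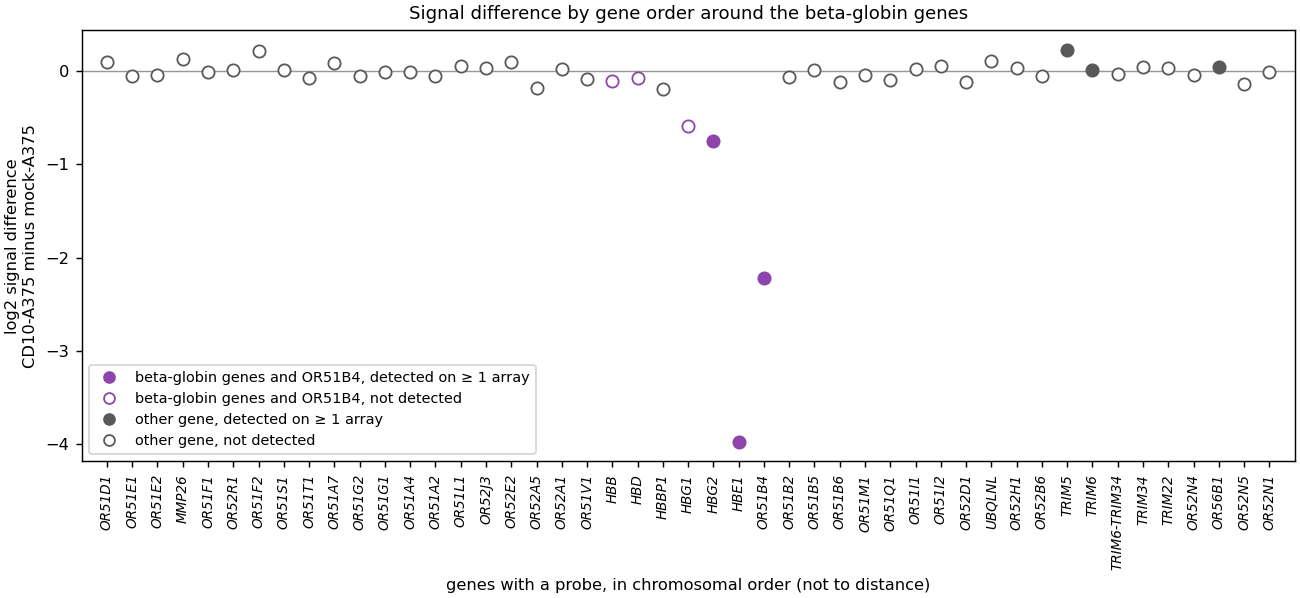
Log2 signal difference, CD10-A375 minus mock-A375, of each gene with a probe around the beta-globin genes, placed in chromosomal order and not by distance. Filled points were detected on at least 1 array. HBE1 (-3.98) and OR51B4 (-2.22) stand far below the other genes of the window, HBG2 lies at -0.75, and TRIM5, TRIM6 and OR56B1, the other genes detected, lie between 0.01 and 0.23.

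The nearest detected genes on either side of the cluster were TRIM68 beyond HBB and TRIM5 beyond OR51B4. Between TRIM68 and HBG2 lie 21 other genes with a probe and between OR51B4 and TRIM5 11, and none of them was detected. Of the 10 nearest detected genes, limma called 3 higher and 0 lower in CD10-A375, and 7 had an adjusted p of 0.05 or more. Over all 11303 genes, 19.9% were higher and 21.9% lower. TRIM68, a ubiquitin ligase gene, was 7.77, 8.10, 7.91 and 8.01 in CD10-A375, against 7.70, 7.51, 7.49 and 7.36 in mock-A375 (log2 signal), a difference of 0.43 (standard error 0.10, adjusted p = 0.002 from limma). CAVIN3, which encodes a caveolar coat protein, rose by 0.59 (standard error 0.07, adjusted p = 1.0e-06) with no overlap between groups. The ribonucleotide reductase gene RRM1 rose by 0.16 (adjusted p = 0.042), a call lost without CD10-A375 array 1, 2 or 3 or mock-A375 array 2, 3 or 4 (0.13 to 0.16, adjusted p up to 0.13). Under SAM, a permutation-based test run on the same values, RRM1 and TRIM68 were not called (adjusted p = 0.44 and 0.11). The other neighbours had log2 differences of -0.31 for the calcium sensor gene STIM1, -0.01 for RHOG, a small GTPase gene, and 0.00 for the antibody receptor gene TRIM21 on the HBB side. On the OR51B4 side they were 0.23 for TRIM5, a retroviral restriction factor gene, 0.01 for TRIM6, 0.05 for the olfactory receptor gene OR56B1 and 0.21 for FHIP1B. With all arrays, limma called neither STIM1 nor TRIM5 (adjusted p = 0.14 and 0.068). With 1 array left out, STIM1 passed only without mock-A375 array 2 (-0.44, adjusted p = 0.046). TRIM5 passed only without mock-A375 array 1 (0.27, adjusted p = 0.049). Over the 653 tested genes of chromosome 11 the median log2 difference was 0.032, with 17.8% lower and 21.9% higher in CD10-A375.

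OR51B4 was set beside the other olfactory receptor genes, which are normally transcribed in nasal sensory neurons. Of the 382 others with a probe, 368 were not detected on any array. Of the 14 tested, 0 were higher, 13 did not pass limma's test and 1, the pseudogene OR7E156P, was lower, with 8.81, 8.74, 8.88 and 8.74 in CD10-A375, against 9.06, 8.96, 9.11 and 9.0 in mock-A375 (log2 signal). Its difference was -0.24 (standard error 0.07, adjusted p = 0.018 from limma), which did not pass without CD10-A375 array 2 (-0.22, adjusted p = 0.051) or array 4 (-0.22, adjusted p = 0.052). Over all genes 41.8% were called in either direction. Most of the 14 had signals close to the background and were detected on some of the arrays only, which limits what could be called. The median over the 14 was 0.095, against -0.025 over all genes. OR11H1 had a difference of -0.23 and OR9A4 of 0.28, with 1 CD10-A375 array above the other 3, and neither passed. SAM did not call OR7E156P (adjusted p = 0.28).

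Alpha-type globins, which pair with the beta-type chains in hemoglobin, were mostly not detected on these arrays. Of 14 alpha-type and other globins and hemoglobin-binding proteins, 12 were not detected on any array, among them HBZ, the embryonic alpha-type partner of the epsilon chain, with a highest signal of -8.09. HBA2, an adult alpha-globin gene, was 5.45, 5.46, 5.11 and 5.86 in CD10-A375, against 5.83, 6.14, 6.16 and 5.80 in mock-A375 (log2 signal). These values overlapped and were detected on 1 CD10-A375 and 4 mock-A375 arrays. The difference was -0.51 (standard error 0.18, adjusted p = 0.031 from limma), but the dimmer of the 2 HBA2 probes had 0.37 (adjusted p = 0.10), and the call did not hold without CD10-A375 array 1, 2 or 3 or mock-A375 array 2 or 3 (-0.39 to -0.51, adjusted p up to 0.10), nor under SAM (adjusted p = 0.10). HBA1 and HBA2 are near-identical and may share signal. AHSP, the chaperone of free alpha chains, had a difference of 0.04 and was detected on 1 array of each group.

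The locus control region and the globin promoters are read by a set of erythroid and general factors, and the largest increase among them was that of NFE2. Of 26 listed activators of globin genes, 24 have a probe and 17 were tested, with 3 higher in CD10-A375, 3 lower and 11 not past the threshold (35.3% called, against 41.8% of all genes). Their median log2 difference was -0.009, against -0.025 over all genes. NFE2, the blood-specific subunit of the factor NF-E2 that binds the locus control region, was 8.50, 8.66, 8.49 and 8.69 in CD10-A375, against 5.85, 6.27, 6.18 and 5.73 in mock-A375 (log2 signal). It was detected on 4 CD10-A375 and 3 mock-A375 arrays, the groups lay far apart, and it rose by 2.58 (standard error 0.12, adjusted p = 8.3e-12 from limma). KLF2, a Krüppel-like factor that activates embryonic beta-type globin genes in the mouse, was 9.26, 9.39, 9.27 and 9.16 in CD10-A375, against 10.32, 10.25, 10.25 and 10.11 in mock-A375. It fell by 0.96 (standard error 0.07, adjusted p = 6.3e-09).

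Smaller differences were found for cofactors of the erythroid complexes. TCF3, a basic helix-loop-helix partner of TAL1, fell by 0.63 (standard error 0.12, adjusted p = 0.00039 from limma). The acetyltransferase gene CREBBP fell by 0.28 (adjusted p = 0.014), although its dimmer probe had 0.10. GATA2, a GATA factor of early blood progenitors, rose by 0.47 (standard error 0.13, adjusted p = 0.009) and the acetyltransferase gene EP300 by 0.44 (adjusted p = 0.025). Of these 4, SAM called TCF3 (adjusted p = 0.037) and did not call GATA2 (0.080), EP300 (0.14) or CREBBP (0.25). The most highly expressed members that did not pass, the remodeler gene SMARCA4 and the arginine methyltransferase gene CARM1, had -0.01 and 0.03. For RAD21, a cohesin gene, the brightest probe did not pass with 0.03, while the other had -0.89 (adjusted p = 4.7e-07 from limma). For USF2 the brightest probe did not pass with 0.28, while the other 2 had 0.57 and 0.61 (adjusted p = 3.4e-05 and 0.003). The counts of activators above take the brightest probe only. The brightest probe of MAFG did not pass with -0.26, while its other tested probe had -0.36 (adjusted p = 0.007 from limma). Of the listed activators that were not tested, GATA1, KLF1, TAL1, LMO2 and LDB1 have 1 probe each, which was not detected on any array.

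Of 36 listed silencers of the embryonic and fetal genes and regulators of the developmental switch, 29 were tested, with 2 higher, 9 lower and 18 not past the threshold (37.9% called, against 41.8% of all genes) and a median log2 difference of 0.003, against -0.025 over all genes. BCL11A, the main repressor of the gamma genes, was detected on 1 array only and had a difference of 0.16 (adjusted p = 0.59 from limma), and ZBTB7A, another gamma-gene repressor, had 0.02 (adjusted p = 0.90). The 2 largest differences were decreases. LIN28B was 7.65, 7.65, 7.65 and 7.71 in CD10-A375, against 8.78, 8.71, 8.79 and 8.82 in mock-A375 (log2 signal), and it fell by 1.11 (standard error 0.08, adjusted p = 2.5e-09). LIN28B is no silencer but an RNA-binding protein of the fetal programme that blocks let-7 maturation. NFIA, a nuclear factor I gene, was 6.21, 6.04, 6.21 and 6.40 in CD10-A375, against 7.39, 7.17, 7.14 and 7.32 in mock-A375. It fell by 1.04 (standard error 0.12, adjusted p = 1.4e-06), and its other probe had -0.64.

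MYB, a transcription factor of blood progenitors, fell by 0.57 (standard error 0.14, adjusted p = 0.003 from limma). IGF2BP3, an RNA-binding protein of fetal tissues that is no silencer either, rose by 0.48 (standard error 0.07, adjusted p = 3.7e-05), and NFIX, another nuclear factor I gene, rose by 0.24. SAM called neither MYB and IGF2BP3 (adjusted p = 0.066 and 0.070) nor NFIX (0.27). The remaining decreases in limma were those of HIC2 and of the chromatin genes RBBP7, PRMT5, KDM1A, GATAD2A and HDAC2, from -0.39 for HIC2 to -0.21 for HDAC2, and SAM called none of these 6 (adjusted p from 0.13 for HIC2 to 0.35 for HDAC2). DNMT1, the maintenance DNA methyltransferase gene, had 0.08 and the histone deacetylase gene HDAC1 -0.13, and neither passed. EZH2 and CHD4 had probes of opposite sign, and their brightest probes did not pass, with 0.19 and 0.11. The other EZH2 probes had -0.29 and -0.27 (adjusted p = 0.011 and 0.0056 from limma) and the other CHD4 probe -0.24 (adjusted p = 0.0335).

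**Figure D3:**
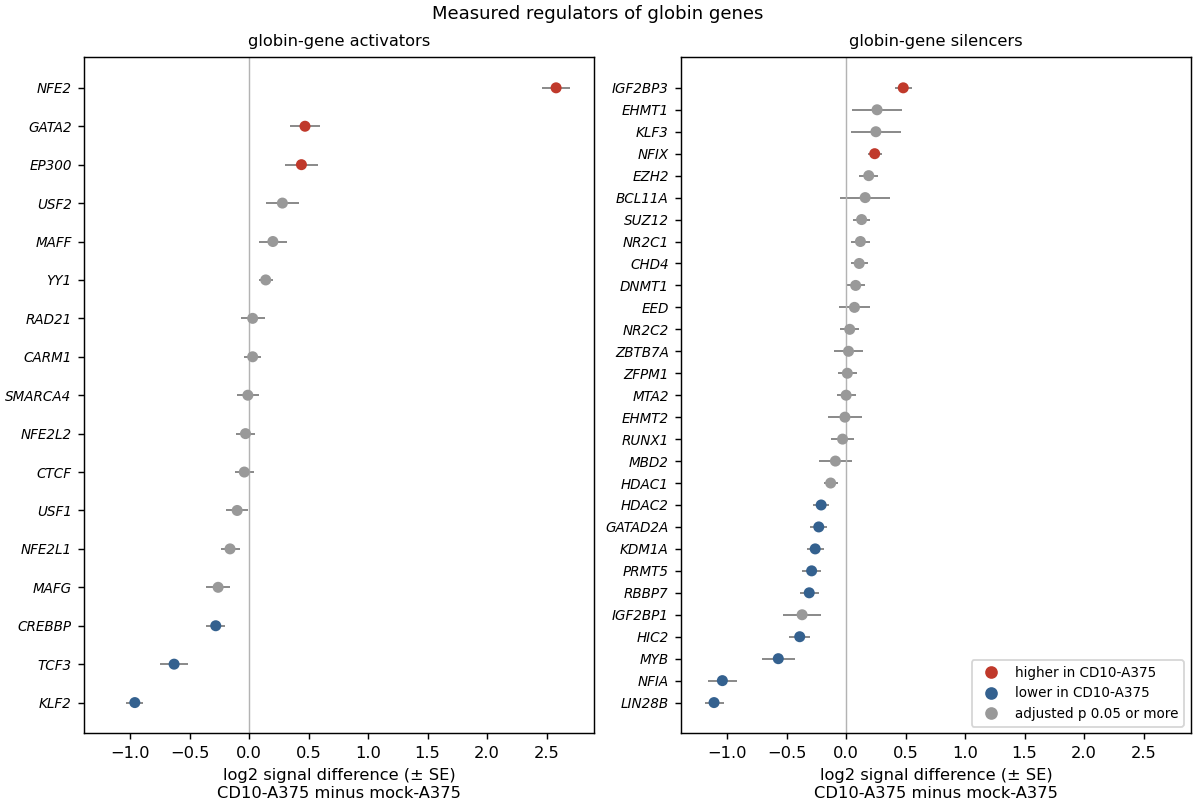
Log2 signal difference, CD10-A375 minus mock-A375, of the 17 tested activators (left) and 29 tested silencers and switch regulators (right) of globin genes, 1 point per gene at its brightest probe with its standard error from limma (n = 4 arrays per group). NFE2 (2.58) lies furthest to the right, and LIN28B (-1.11), NFIA (-1.04) and KLF2 (-0.96) furthest to the left.

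Heme, the prosthetic group of hemoglobin, is made in every cell. Of 24 tested genes of heme synthesis, transport and breakdown, limma called 9 higher and 5 lower in CD10-A375 and left 10 uncalled, with a median log2 difference of 0.12, and over all genes 41.8% passed in either direction. BLVRB, a biliverdin reductase gene of heme breakdown, was 7.15, 7.35, 7.58 and 7.25 in CD10-A375, against 6.56, 6.66, 6.57 and 6.39 in mock-A375 (log2 signal), and rose by 0.79 (standard error 0.12, adjusted p = 3.3e-05 from limma). The synthesis genes ALAS1, whose enzyme sets the rate outside red cells, and PPOX rose by 0.60 (adjusted p = 0.003) and 0.50 (adjusted p = 0.00015), and the mitochondrial iron importer gene SLC25A37 rose by 0.43 (adjusted p = 0.002). ALAD, UROD and UROS, which encode other enzymes of the pathway, also rose, by 0.42, 0.33 and 0.24. CPOX and FECH, the last of which inserts the iron, fell by 0.33 and 0.37, as did ABCB10 by 0.36, GLRX5 by 0.21 and TMEM14C by 0.14, whose dimmer probe had 0.11. Of the 14 heme genes that limma called, SAM called BLVRB only (adjusted p = 0.029), and the others had adjusted p-values from 0.063 for ALAS1 to 0.45 for TMEM14C. The heme oxygenase gene HMOX1 had 0.36 and did not pass (adjusted p = 0.054), and SLC25A39 and CLPX had -0.03 and -0.01.

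**Figure D4:**
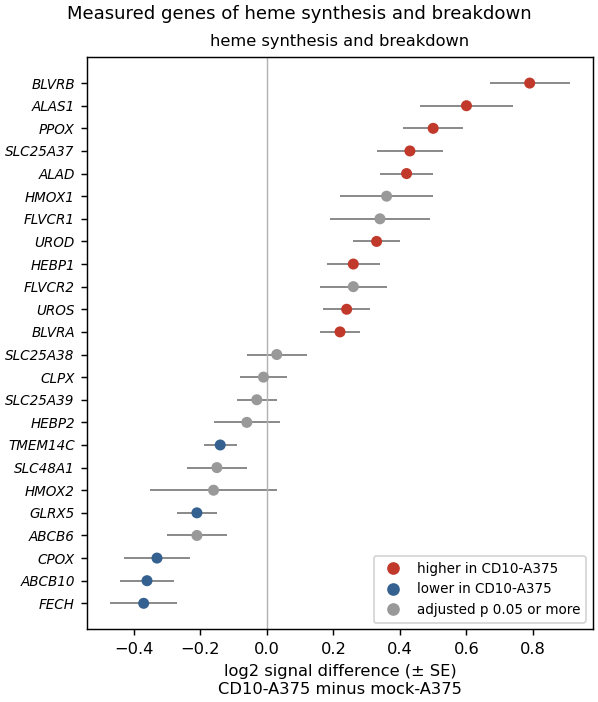
Log2 signal difference, CD10-A375 minus mock-A375, of the 24 tested genes of heme synthesis, transport and breakdown, 1 point per gene at its brightest probe with its standard error from limma (n = 4 arrays per group). BLVRB (0.79) lies highest and FECH (-0.37) lowest, with 9 genes higher, 5 lower and 10 not past the threshold.

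Markers of red cells and of other cell types were read on the same arrays. Of 16 erythroid markers, 13 have a probe and 10 of these were not detected on any array, among them ALAS2, the red-cell form of the first heme enzyme, and the membrane genes SLC4A1 and EPB42. Their lowest detection p was 0.018. The 3 tested were AHSP, given above, and EPOR and TFRC, which are not confined to red cells. EPOR, the erythropoietin receptor gene, was 6.44, 6.61, 6.30 and 6.54 in CD10-A375, against 5.48, 5.53, 6.13 and 5.56 in mock-A375 (log2 signal), with detection on 4 CD10-A375 arrays and 1 mock-A375 array. It rose by 0.80 (standard error 0.16, adjusted p = 0.00067 from limma). TFRC, the transferrin receptor gene through which cells take up iron, was 12.55, 12.52, 12.56 and 12.51 in CD10-A375, against 13.22, 13.11, 13.21 and 13.21 in mock-A375, and it fell by 0.65 (standard error 0.05, adjusted p = 1.5e-08). The summed signal of the 13 markers was 5525 to 6693 in CD10-A375 and 8324 to 10030 in mock-A375, of which TFRC alone reached 10020.

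Of the 15 melanocyte and melanoma markers, 8 were tested, of which 5 rose in CD10-A375 and 3 did not pass, with a median log2 difference of 0.40, against 19.9% higher and a median of -0.025 over all genes. S100A1 rose by 1.09, CSPG4 by 0.59, SOX10 by 0.53, EDNRB by 0.39 and PRAME by 0.30, of which SAM did not call EDNRB and PRAME (adjusted p = 0.12 and 0.20). S100A1 is also among the genes the study itself picked from these arrays, so its call is not independent of that choice. MITF, the master regulator of melanocytes, had 0.14 (adjusted p = 0.32 from limma) and MCAM -0.29 (adjusted p = 0.084). The pigment genes PMEL, MLANA, TYR and TYRP1 were not detected on any array, and neither was S100B. Of the leukocyte markers only CD14 was detected, with a difference of 0.14 that did not pass. Of 6 fibroblast markers, 3 were not detected, PDGFRB had -0.12 and did not pass. LUM and COL1A2 fell by 0.92 (adjusted p = 0.004 from limma) and 0.76 (adjusted p = 0.004), and over all genes 21.9% were lower. LUM was detected on 0 CD10-A375 and 2 mock-A375 arrays and COL1A2 on 0 CD10-A375 arrays and 1 mock-A375 array. Both thus entered the test through mock-A375 arrays only. Their differences depended on how low signals were treated, with -4.99 and -3.79 for average-normalized values and a floor of 0.1. The summed signal of the 6 fibroblast markers was 131 to 176 in CD10-A375 and 215 to 265 in mock-A375, that of the 4 leukocyte markers with a probe 75.1 to 99.3 in CD10-A375 and 63.3 to 109 in mock-A375, and that of the 14 melanocyte and melanoma markers 10260 to 13300 in CD10-A375 and 7533 to 8705 in mock-A375. Much of the fibroblast sum came from PDGFRB, which alone reached 147.7, and of the melanocyte and melanoma sum from SOX10, which reached 6924. The part of these cell-type markers in the globin values was not tested.

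The genes whose signal followed HBE1 most closely over the 8 arrays were H19, RGS2, NOXO1, GDF15 and ADAMTS1, with Pearson's r of 0.9997, 0.9996, 0.9995, 0.9994 and 0.9994. The 2 groups of 4 arrays set most of this likeness, and 172 of 15010 probes reached an r of 0.99 or more. H19, an imprinted noncoding RNA of fetal tissues on the same chromosome arm as the globin cluster, was 4.66, 4.78, 4.76 and 4.66 in CD10-A375, against 8.64, 8.65, 8.61 and 8.57 in mock-A375 (log2 signal). Like HBE1 it was detected on 0 CD10-A375 and 4 mock-A375 arrays, and it fell by 3.90 on the offset scale (standard error 0.11, adjusted p = 3.0e-15 from limma). ADAMTS1, a secreted metalloprotease gene, fell by 2.75 with the same pattern of detection. RGS2, a regulator of G protein signaling, and NOXO1, a subunit gene of an NADPH oxidase, were detected on all 8 arrays, and GDF15, a stress cytokine gene, in mock-A375 only. OR51B4 came at rank 321 with an r of 0.983 and HBG2 at rank 712 with 0.960. After subtraction of the group means, the deviations of the 5 genes correlated with those of HBE1 at 0.33 for NOXO1 to 0.74 for GDF15. The 5 genes were picked by their correlation over the same arrays, so these positive values follow in part from that choice. Their differences between the groups follow from it too and are given without a test.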

How the data were processed

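Total RNA of 4 CD10-A375 and 4 mock-A375 samples was measured on Illumina bead arrays. The authors summarized the arrays in GenomeStudio (version 1 per the submitters' notes) and deposited background-subtracted intensities, not normalized between arrays, each with a deposited detection p-value from negative-control probes. They also deposited the intensities after average normalization (1 factor per array, 0.884 to 1.04), used as an alternative. The number of arrays limits the precision.

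With limma 3.58.1 in R 4.3.3, the intensities were corrected by normexp, using the detection p-values to find the negative-control level. They were then raised by an offset of 16, quantile normalized and turned into log2 values. Probes that any array detected (detection p of 0.01 or below) entered a moderated linear model (two-sided, trend by intensity), and p-values were adjusted by Benjamini-Hochberg across them. Of the probes, 30113 carry 1 symbol, 8 several and 17201 none, and only the first kind was named. Each gene was read from its brightest tested probe. Named were the beta-globin genes, OR51B4 and MME, up to 4 genes per list with the largest differences past the threshold and 2 bright ones not past it, 5 tested neighbours per side, and the 5 genes most like HBE1. Other genes named were chosen after their values were seen. The genes and lists were chosen with earlier results of these data known.

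Limma and a SAM test written anew, because the package of the methods was not used here, were tested on simulated data: of 67 probes changed 1.5-fold limma found 39 and SAM 32, of 67 changed 2-fold 57 and 51, and of 66 changed 4-fold 66 and 66. In the simulation 19350 of 19550 probes were unchanged, whereas limma called 36.6% of the tested probes in these data. SAM compared each value with those of all 70 ways to label the arrays, the true labels among them. The lowest adjusted p that SAM gave to a listed gene was 0.02857. The simulated rates therefore need not hold here, and a gene that SAM left uncalled is not shown to be unchanged. Alternatives covered the normalization, background, offset, filter, probe per gene, test, threshold, a replicate block and each array left out.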

Additional observations from a re-analysis of the deposited data

Results flagged for a closer look

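In 8 of 102 groups of 4 arrays examined, 1 array stood apart from the other 3 by Dixon's test, which by chance marks about 1 group in 20. All values are normalized log2 signals.

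HBB was 5.27 on CD10-A375 array 3, with 4.72 to 4.81 on the other 3, and 5.28 on mock-A375 array 2, with 4.87 to 4.91 on the other 3. HBB was not detected on any of these arrays. LIN28B was 7.71 on CD10-A375 array 4, with 7.65 on each of the other 3. EPOR was 6.13 on mock-A375 array 3, the 1 mock-A375 array that detected it, with 5.48 to 5.56 on the others. TFRC was 13.11 on mock-A375 array 2, with 13.21 to 13.22 on the others. COL1A2 was 4.68 on CD10-A375 array 2, with 4.85 to 4.88 on the others. PDGFRB was 6.80 on CD10-A375 array 4, with 7.08 on each of the others. OR9A4 was 7.24 on CD10-A375 array 4, with 6.64 to 6.65 on the others.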

How the results depend on the processing

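No named gene past its threshold turned its direction at its brightest probe under any alternative run, whereas HBA2, CREBBP and TMEM14C had the opposite sign at their dimmer probe (0.37, 0.10 and 0.11). At an adjusted p under 0.05, limma called 3386 probes higher and 3776 lower in CD10-A375, and 23 and 22 of the listed genes. SAM called 1496 probes higher and 1301 lower, and 7 and 7 of the listed genes. The threshold of the methods left 575 probes higher and 394 lower with limma, and 575 and 394 with SAM. The log2 differences of HBE1, OR51B4 and HBG2 depended on how low signals were treated. They were -8.52, -3.20 and -1.26 with average-normalized values and a floor of 0.1, and -2.92, -1.53 and -0.45 with an offset of 50, and that of HBE1 was -4.55 without normexp. HBG1, HBB and HBD, which were not detected, had -7.57, -2.72 and -0.48 with the average-normalized values and floor, and HBG1 had -0.28 with the offset of 50 and -1.15 without normexp, against -0.59.

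Leaving out each array in turn gave 3023 to 3235 probes higher and 3370 to 3711 lower, and 21 to 25 and 18 to 22 listed genes. HBE1 stayed between -4.00 and -3.94, OR51B4 between -2.30 and -2.11 and HBG2 between -0.82 and -0.70, whereas HBB ran from -0.23 to 0.00 and HBD from -0.15 to 0.06. The replicate numbers do not pair the arrays, since deviations of same-numbered arrays correlated at -0.189 to 0.032 and 1 of 8 arrays correlated best with its own number. With the replicate number as a block, 3152 probes were higher and 3483 lower, 22 and 20 listed genes passed, and HBE1, OR51B4 and HBG2 stayed at -3.98, -2.22 and -0.75.

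Among the named genes, 338 values kept their call and 17 lost it under the other settings, and with 1 array left out 344 kept it, 13 lost it and 2 gained it. Of the 45 listed genes that limma called, SAM called 14 (higher: NFE2, BLVRB, EPOR, S100A1, CSPG4, SOX10 and CAVIN3, lower: KLF2, TCF3, LIN28B, NFIA, TFRC, LUM and COL1A2), and the other 31 had adjusted p-values from 0.063 for ALAS1 to 0.45 for TMEM14C. HBA2 and RRM1 did not pass without the detection filter or with the block, nor RRM1 and OR7E156P without normalization between arrays. Signals of HBG1, HBB, HBD, LUM and COL1A2 near the background limit what can be said of them.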
